A study of Mus musculus with 24 samples.

Results

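The transcriptional response of mouse eosinophils to granulocyte-macrophage colony-stimulating factor (GM-CSF) was measured in cells that also received interleukin-10 (IL-10). The comparison took 6 of the 24 RNA-seq libraries of the series by their labels. In 3 of them wild-type cells had received IL-10 and GM-CSF, and in the other 3 wild-type cells had received IL-10. All genes were considered, and 11885 had enough counts to be tested. The cells were cultured from C57BL/6 bone marrow. From day 0 to day 4 the medium held 100 ng/ml of stem cell factor and 100 ng/ml of FLT3 ligand, and after that it held 10 ng/ml of interleukin-5 (IL-5). Dead cells were taken out on day 13, before an overnight culture in which every group had IL-5 at 10 ng/ml and the groups labelled so had GM-CSF at 20 ng/ml. The IL-10 dose is not given in the sources used here. No sorting step is stated, so each library holds whatever cells the culture held. Wild-type cells without IL-10 (3 untreated libraries and 3 with GM-CSF) and cells labelled Csf2ra-/-, also of C57BL/6 mice and without IL-10 (3 untreated and 3 with GM-CSF), served to show where the response differed. The labels do not say whether libraries of a group came from separate animals or cultures, so p-values measure only the spread between these libraries, which may be technical.

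GM-CSF binds a receptor made of an alpha chain, encoded by Csf2ra, and the beta chain that it shares with IL-5 and IL-3. The receptor activates JAK2 and STAT5 and the MAP kinase and NF-kB pathways, and it prolongs the survival of eosinophils and primes them to secrete cytokines. IL-10 acts through its own receptor and STAT3, and in macrophages it restrains the production of inflammatory cytokines and chemokines such as Tnf and Il1b. The comparison asks which genes respond to GM-CSF in cells that are given IL-10 as well.

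Total counts in the 6 libraries ranged from 11653200 to 18709153. Levels are CPM, the count of a gene relative to the library's total after TMM scaling, which corrects for differences in composition, in the order of replicates 1, 2 and 3, and the numbers only name the libraries. Prg2, the eosinophil granule major basic protein, ranged from 41433.5 to 45690 CPM and Siglecf, an eosinophil surface lectin, from 280 to 386 CPM, so the defining markers of the labelled cell type were present. Bcl3, a gene that IL-10 raises in macrophages, lay between 21.1 and 40.2 CPM in these 6 libraries and between 5.36 and 9.55 CPM in the 6 wild-type libraries without IL-10. Replicate 3 with both cytokines stood apart: 15196 genes had a count in it, against 13913 to 14078 in the other 5 libraries. Its chi-square per degree of freedom against replicates 1 and 2 was 23.7 and 38.2, against 9.10 between those 2 and 3.37 to 9.47 within the IL-10 group. No pair of libraries differed by as little as sampling noise alone. The summed level of 4 Y-linked genes was 60.9, 56.0 and 175 CPM in the IL-10 group, against 182, 47.0 and 171 CPM in the group with both cytokines.

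In cells given IL-10, 86 genes rose and 16 fell upon addition of GM-CSF at an adjusted p under 0.05, which is 0.858% of the genes tested (0.724% higher and 0.135% lower). Of these, 57 rose and 12 fell at least 2-fold. Among called genes at 5 CPM or more on average, the largest rises were those of the surface protein gene Plet1, the chemokine genes Ccl17 and Ccl4, the lectin gene Clec4n and Il1b, and the largest fall was that of Igf1, the gene of insulin-like growth factor 1. Some genes at lower levels had folds above that of Ccl4, on few counts, such as Rbp4 at 5.17 on the log2 scale. All 102 genes had 3 libraries with both cytokines that did not overlap with the 3 libraries with IL-10, as did 17.3% of all genes tested (9.24% higher and 8.05% lower). The median log2 fold change was 1.46 over the raised genes and -1.24 over the lowered genes, against 0.00416 over all genes. In 46 of the 86 raised genes the library with the lowest level among those with both cytokines was replicate 3. The count of 102 went to 44 without IL-10 replicate 1, to 51 without IL-10 replicate 2 and to 79 without the outlying replicate 3 with both cytokines. In all 6 fits that left out 1 library, 36 of the 86 raised and 5 of the 16 lowered genes kept their call.

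**Figure D1:**
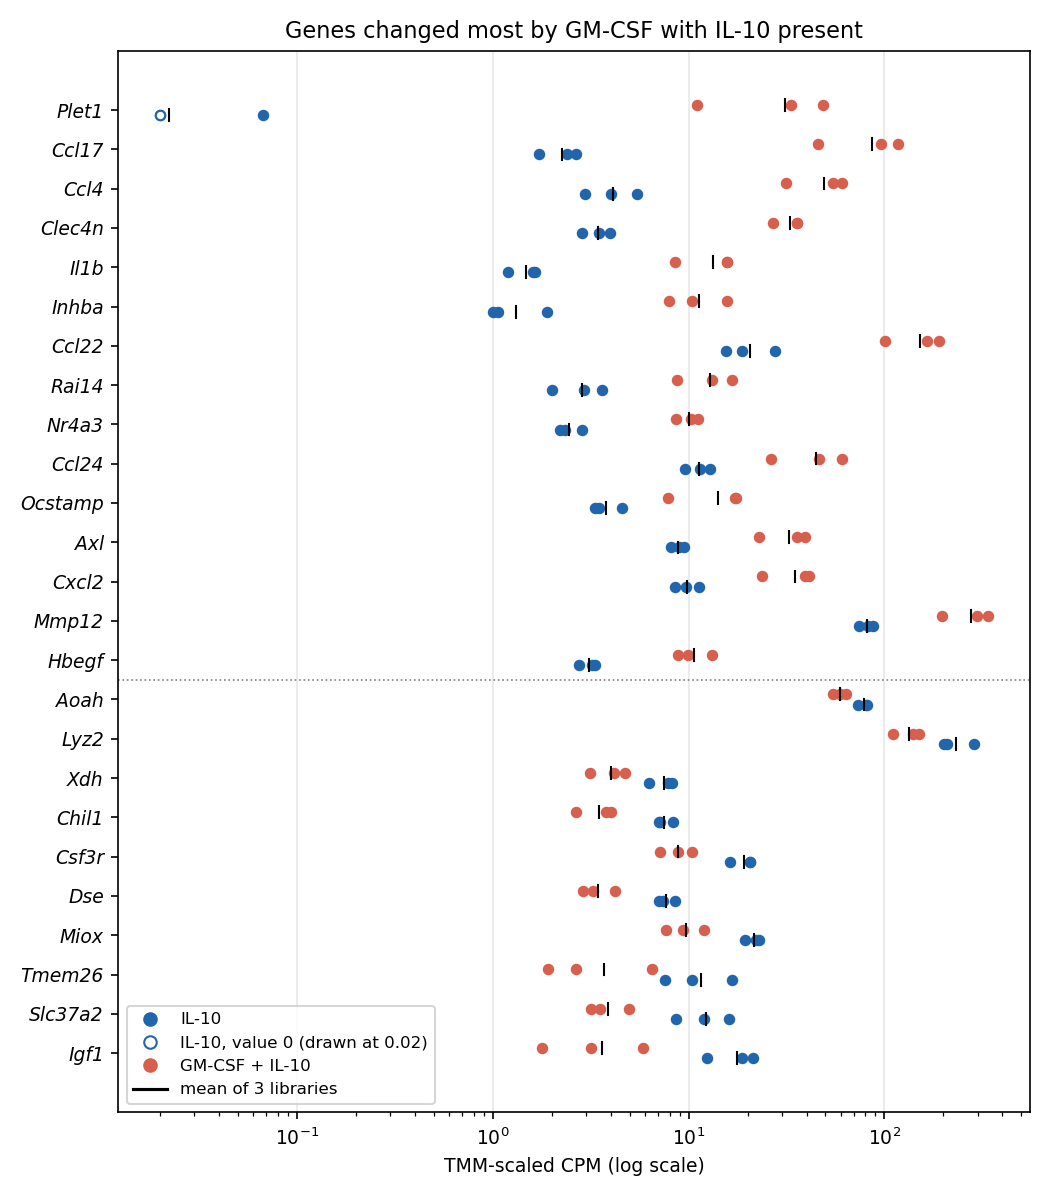
TMM-scaled CPM on a log axis for the 15 genes with the largest rise and the 10 with the largest fall among called genes with a mean of at least 5 CPM. Each dot is a library (3 per group), vertical lines are group means, and the open dot marks Plet1 libraries at 0, drawn at 0.02. In each gene shown, the libraries with both cytokines lie on one side of the libraries with IL-10.

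Chemokines were the group with the most raised members: of 23 listed genes 13 were tested, 6 rose and none fell, all 13 had a positive log2 fold change, and their median was 1.38. Over all genes tested 0.724% rose, 0.135% fell and the median was 0.00416, the reference for this list and each list below. Ccl17 (chromosome 8, 94810453 to 94812036 on GRCm38), a ligand of the receptor CCR4 that attracts type 2 T cells, stood at 2.41, 2.67 and 1.72 CPM with IL-10 and at 96.5, 117 and 45.7 CPM with both cytokines. Every library with both cytokines was far above every library with IL-10, and the log2 fold change was 5.22 ± 0.44 (SE, adjusted p = 1.13e-06, edgeR). Ccl22, the other CCR4 ligand, lies on the same chromosome with a gap of 58754 bases to Ccl17. It went from 18.7, 15.5 and 27.6 CPM to 165, 190 and 100 CPM (log2 fold change 2.89 ± 0.37, adjusted p = 0.000145, edgeR), again without overlap.

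The neighbouring genes Ccl4 and Ccl3 on chromosome 11, with 13229 bases between them, encode macrophage inflammatory proteins, which attract leukocytes. Ccl4 stood at 2.94, 4.01 and 5.42 CPM with IL-10 and at 60.9, 54.5 and 31.4 CPM with both cytokines. Its log2 fold change of 3.58 ± 0.27 had the smallest adjusted p of all genes (9.65e-08, edgeR). Ccl3 was already higher with IL-10, at 28.4, 29.4 and 24.7 CPM, and reached 76.2, 69.2 and 70.2 CPM, a smaller rise with a narrow spread (1.38 ± 0.15, adjusted p = 9.98e-06, edgeR). Cxcl2, a neutrophil attractant, rose from 8.50, 11.4 and 9.73 CPM to 39.4, 41.1 and 23.8 CPM (1.81 ± 0.19, adjusted p = 7.21e-06, edgeR). Ccl24, which encodes an eotaxin that attracts eosinophils themselves, rose from 11.4, 12.8 and 9.55 CPM to 46.6, 60.7 and 26.3 CPM (1.98 ± 0.37, adjusted p = 0.0062, edgeR), and it was the only one of the 6 to lose its call without a single library, IL-10 replicate 1. The monocyte attractant Ccl2 stood at 16.3, 14.2 and 9.55 CPM against 23.0, 45.0 and 22.01 CPM and did not pass the test (1.16 ± 0.34, adjusted p = 0.158, edgeR).

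The sequences before 2 of these chemokine genes are shown because they hold a match to the letters bound by STAT factors or by NF-kB, the factors that the receptor activates. They are the 150 bases before the RefSeq start on GRCm38.p6, 5′ to 3′ on the gene's strand, and capitals mark the match.
Ccl17, chr8:94810303-94810452, plus strand, STAT letters TTCNNNGAA starting 99 bases before the start: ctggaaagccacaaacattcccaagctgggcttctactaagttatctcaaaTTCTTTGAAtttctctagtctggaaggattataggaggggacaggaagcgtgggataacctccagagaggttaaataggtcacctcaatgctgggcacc
Cxcl2, chr5:90903749-90903898, plus strand, NF-kB letters, whose central pair is free, starting 97 bases before the start, with an overlapping match on the other strand: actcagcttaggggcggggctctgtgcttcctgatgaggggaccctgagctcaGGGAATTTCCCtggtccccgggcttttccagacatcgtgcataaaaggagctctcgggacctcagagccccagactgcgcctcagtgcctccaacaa
A match describes these letters and not a bound site. The RefSeq promoters of Ccl3 and Ccl22 held none of the 5 motifs searched, and Ccl4 and Ccl24 had no promoter entry and were not searched. Over the 300 bases from 250 before to 50 after the start, on both strands, the STAT letters were in 6 of 70 raised genes with a promoter entry (8.57%), in 0 of 14 lowered genes and in 6.91% of the 9174 tested genes with an entry. The NF-kB letters were in 2 of 70 (2.86%), 1 of 14 and 1.41%, respectively. The AP-1 letters TGANTCA were in 8 of 70 (11.4%), among them Plet1, Il1a and Itgax, in 2 of 14 (Igf1 and Slc37a2) and in 4.85% of all. CRE letters (TGACGTCA) were in 4 of 70 (5.71%), 0 of 14 and 3.35%, and EGR letters (GCGNGGGCG) in 11 of 70 (15.7%), 0 of 14 and 10.7%. The near-identical copies Bcl2a1b and Bcl2a1d were both among the AP-1 and the EGR genes, and no test was made on these shares.

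Among 9 inflammatory cytokine genes tested, 3 rose, none fell and the median was 0.68. Il1b (chromosome 2, 129364570 to 129371139), which encodes interleukin-1 beta, stood at 1.61, 1.20 and 1.64 CPM with IL-10 and at 15.7, 15.6 and 8.54 CPM with both cytokines (log2 fold change 3.16 ± 0.36, adjusted p = 2e-05, edgeR). Its neighbour Il1a, the gene of interleukin-1 alpha, went from 0.803, 0.535 and 0.258 CPM to 4.22, 4.36 and 2.31 CPM (2.70 ± 0.55, adjusted p = 0.0157, edgeR). Both genes stayed low in absolute terms, and neither had overlapping groups. The Il1a call held in 2 of the 6 fits that left out a library, and the Il1b call held in all 6. Tnf, the gene of tumour necrosis factor, was higher in level but rose less, from 18.9, 20.4 and 19.7 CPM to 43.2, 38.6 and 30.4 CPM (0.92 ± 0.12, adjusted p = 9.82e-05, edgeR). Il1rn, the interleukin-1 receptor antagonist, was far above Il1b, at 118, 126 and 112 CPM against 157, 189 and 369 CPM. The groups did not overlap, but the spread with both cytokines, set by replicate 3, was wide and the gene did not pass the test (1.01 ± 0.38, adjusted p = 0.355, edgeR).

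Of the type 2 and regulatory cytokines 4 were tested and 2 rose. Il13, a main effector of type 2 inflammation, stood at 5.22, 6.42 and 5.42 CPM with IL-10 and at 14.95, 14.3 and 17.5 CPM with both cytokines (1.45 ± 0.22, adjusted p = 0.000465, edgeR). Tgfb1, a cytokine of tissue repair and immune restraint, rose from 182, 200 and 217 CPM to 265, 265 and 313 CPM (0.49 ± 0.11, adjusted p = 0.0359, edgeR), a call that held in 1 of the 6 fits that left out a library. Il4 lay at 33.3, 35.3 and 34.8 CPM against 43.7, 43.6 and 47.0 CPM, without overlap but short of the threshold (0.38 ± 0.15, adjusted p = 0.374, edgeR). Inhba, which encodes the subunit of activin A, rose from 1.07, 1.00 and 1.89 CPM to 15.8, 10.4 and 7.91 CPM (3.12 ± 0.37, adjusted p = 2.28e-05, edgeR). Hbegf, a growth factor of the EGF family, rose from 3.35, 3.21 and 2.75 CPM to 9.92, 13.2 and 8.81 CPM (1.76 ± 0.20, adjusted p = 2.08e-05, edgeR). None of these 5 genes had overlapping groups.

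Plet1 (chromosome 9, 50494525 to 50505482), a surface protein gene of epithelial progenitors and of some dendritic cells, had the largest rise. It was nearly absent with IL-10, at 0.0669, 0 and 0 CPM, and stood at 33.5, 48.7 and 11.1 CPM with both cytokines. The libraries held 1333 counts against 1, a ratio of 1195 with an exact 95% counting interval of 214 to 47219 that covers counting error only (adjusted p = 0.000298, edgeR). Other surface genes rose from low but measurable levels. Axl, a receptor for apoptotic cells, went from 8.90, 8.09 and 9.47 CPM to 39.3, 35.8 and 22.9 CPM (1.89 ± 0.32, adjusted p = 0.00301, edgeR), and Ocstamp, a gene of cell fusion in osteoclasts, from 3.48, 3.34 and 4.56 CPM to 17.4, 17.2 and 7.81 CPM (1.89 ± 0.40, adjusted p = 0.0213, edgeR). The Ocstamp call was lost when any of replicates 1 and 2 of either group was left out. Rai14, which encodes an actin-associated protein, rose from 3.61, 2.00 and 2.93 CPM to 16.7, 13.2 and 8.75 CPM (2.17 ± 0.36, adjusted p = 0.00201, edgeR).

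Pattern-recognition and Fc receptors split: of 27 tested, 4 rose and 1 fell, and the median was -0.10. Clec4n, which encodes the fungal receptor dectin-2, went from 3.48, 2.87 and 3.96 CPM to 36.0, 35.8 and 26.9 CPM, with no overlap (3.26 ± 0.30, adjusted p = 1.13e-06, edgeR). Clec7a, the gene of dectin-1, rose less, from 29.6, 25.8 and 28.6 CPM to 49.8, 40.1 and 44.3 CPM (0.68 ± 0.14, adjusted p = 0.016, edgeR). Tlr2, a receptor for bacterial lipoproteins, rose from 4.42, 4.14 and 5.42 CPM to 15.2, 17.6 and 13.7 CPM (1.74 ± 0.19, adjusted p = 1.38e-05, edgeR). Its co-receptor gene Cd14 rose from 8.30, 9.09 and 13.4 CPM to 24.4, 29.8 and 16.9 CPM (1.21 ± 0.25, adjusted p = 0.0152, edgeR), and Clec4a1, a lectin of the same gene cluster as Clec4n, fell from 6.16, 6.01 and 4.39 CPM to 1.48, 2.76 and 0.891 CPM (-1.72 ± 0.40, adjusted p = 0.0367, edgeR). Lectin genes of this cluster share sequence, so reads may be split between them. The count of 5 called receptors was 2 without replicate 1 with both cytokines and 2 without IL-10 replicate 1 or 2.

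Feedback and target genes of JAK-STAT5 signalling rose in part: 4 of 18 tested were higher, none was lower, 14 had a positive log2 fold change and the median was 0.37. Cish, a STAT5 target that dampens the shared beta-chain receptors, was at 243, 243 and 262 CPM with IL-10 and at 370, 378 and 375 CPM with both cytokines, a small rise with little spread (0.59 ± 0.11, adjusted p = 0.00604, edgeR). Socs1 rose from 31.7, 39.2 and 34.9 CPM to 72.1, 88.1 and 85.2 CPM (1.21 ± 0.23, adjusted p = 0.00803, edgeR) and Socs2 from 38.3, 42.3 and 31.8 CPM to 58.1, 54.8 and 64.8 CPM (0.66 ± 0.13, adjusted p = 0.0152, edgeR). These inhibitors of cytokine signalling all lay above the IL-10 libraries in each library with both cytokines. Ccnd2, which encodes cyclin D2, rose from 33.3, 34.7 and 32.0 CPM to 54.6, 50.3 and 60.5 CPM (0.73 ± 0.11, adjusted p = 0.000389, edgeR). Socs3, the feedback gene of STAT3, lay at 43.0, 45.4 and 37.0 CPM against 73.2, 91.8 and 51.2 CPM and missed the threshold (0.78 ± 0.21, adjusted p = 0.0886, edgeR). The count of 4 was 8 with DESeq2, 7 with only wild-type libraries in the fit and 1 without IL-10 replicate 1.

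The Cish stretch is shown because it carries a pair of STAT letter matches, the former starting at the RefSeq start base, and capitals mark them.
Cish, chr9:107296654-107296683, plus strand, GRCm38.p6: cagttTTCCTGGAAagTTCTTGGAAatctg
The RefSeq promoter of Socs1 held none of the 5 motifs, and Socs2 and Ccnd2 had no promoter entry and were not searched. Of the 19 IL-10 and STAT3 targets tested, none was called by edgeR, 6 had an unadjusted p under 0.05 and DESeq2 called 1, and their median was 0.09. Over all 11885 genes tested, 1144 had an unadjusted p under 0.05 (edgeR) and DESeq2 called 168. Bcl3 was at 26.8, 27.1 and 23.5 CPM with IL-10 and at 28.3, 40.2 and 21.1 CPM with both cytokines, overlapping groups.

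Survival genes were represented by the anti-apoptotic BCL2 relatives Bcl2a1d and Bcl2a1b, the members called of 23 apoptosis regulators and of 25 NF-kB genes. Bcl2a1d stood at 0.736, 0.468 and 0.516 CPM with IL-10 and at 4.14, 5.89 and 3.62 CPM with both cytokines (2.96 ± 0.39, adjusted p = 9.82e-05, edgeR). Bcl2a1b rose from 19.3, 21.1 and 20.3 CPM to 26.3, 31.0 and 34.6 CPM (0.60 ± 0.14, adjusted p = 0.0433, edgeR), and its call held in 1 of the 6 fits that left out a library. Copies of Bcl2a1 are near-identical, so how reads were shared between them is uncertain. Of the 25 NF-kB genes 20 had a positive log2 fold change and the median was 0.30, but no subunit gene passed the test. MHC class II genes (10 tested, median 0.37), ribosome biogenesis genes (24 tested, 22 positive, median 0.33) and glycolysis and hypoxia genes (22 tested, 1 positive, median -0.14) had no member called by edgeR. At an unadjusted p under 0.05 these 3 lists had 2, 8 and 1 genes, and DESeq2 called 0, 1 and 0. The same unadjusted threshold was passed by 1144 of all 11885 genes tested (edgeR).

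Of 29 cytokine receptor genes listed, 1 rose and 1 fell. Csf2ra, the ligand-binding chain, rose from 41.8, 47.4 and 46.5 CPM to 68.3, 71.7 and 81.4 CPM without overlap (0.71 ± 0.14, adjusted p = 0.0108, edgeR). Csf3r, the receptor of granulocyte colony-stimulating factor, fell from 20.6, 16.3 and 20.6 CPM to 10.4, 8.87 and 7.18 CPM (-1.13 ± 0.21, adjusted p = 0.00482, edgeR). This count of 2 was 1 without IL-10 replicate 1 or without replicate 3 with both cytokines, where the Csf2ra call was lost. Il21r, the interleukin-21 receptor gene, is not on the list and rose from 12.6, 12.2 and 10.8 CPM to 20.3, 19.7 and 17.6 CPM (0.69 ± 0.12, adjusted p = 0.00317, edgeR). Csf2rb, the shared beta chain, ranged from 3652 to 3960 CPM with IL-10 and from 3701 to 4371 CPM with both cytokines (0.05 ± 0.13, adjusted p = 0.941, edgeR), with reads that its near-copy Csf2rb2 may share. The genes of the IL-10 receptor, Il10ra and Il10rb, and of the IL-5 receptor chain, Il5ra, had log2 fold changes of -0.13, -0.16 and -0.28 with adjusted p-values of 0.910, 0.698 and 0.774 (edgeR). None of 21 chemoattractant receptors and none of 22 eosinophil granule and lineage genes was called, and the lineage list had a median of -0.00516. In these lists 4 and 3 genes had an unadjusted p under 0.05, beside 1144 of all 11885 genes tested (edgeR), and DESeq2 called 1 and 0. Among 17 integrin and adhesion genes 1 rose, Itgax, the gene of CD11c, from 42.8, 39.8 and 38.0 CPM to 68.8, 86.1 and 69.2 CPM (0.89 ± 0.12, adjusted p = 9.51e-05, edgeR).

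Other effector genes of tissue remodelling rose. Mmp12, the macrophage elastase gene, went from 87.8, 73.9 and 82.4 CPM to 298, 339 and 196 CPM (1.77 ± 0.27, adjusted p = 0.000735, edgeR). Spp1, the gene of osteopontin, went from 96.6, 82.5 and 117 CPM to 250.7, 220 and 192 CPM (1.16 ± 0.19, adjusted p = 0.00171, edgeR), and Chil3, a chitinase-like protein of alternative activation, from 34.5, 27.1 and 41.6 CPM to 90.4, 81.0 and 57.8 CPM (1.15 ± 0.25, adjusted p = 0.027, edgeR). With Hbegf these made 4 of 25 tested genes of alternative activation and matrix remodelling that rose, and Igf1 was the 1 that fell. The Chil3 call held in 2 of the 6 fits that left out a library. Costimulatory ligands gave 2 raised genes of 15. Pdcd1lg2, the gene of PD-L2, rose from 2.14, 2.54 and 2.50 CPM to 5.70, 7.35 and 3.98 CPM (1.24 ± 0.28, adjusted p = 0.0321, edgeR), and Tnfsf4, the gene of OX40 ligand, from 0.468, 0.601 and 0.775 CPM to 3.11, 1.96 and 2.10 CPM (1.96 ± 0.35, adjusted p = 0.00379, edgeR). Both called ligands were under 10 CPM in every library, and this count fell to 0 without IL-10 replicate 1. Cd274, the gene of PD-L1, lay at 40.1, 35.2 and 30.6 CPM against 38.8, 53.8 and 33.2 CPM, overlapping groups.

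**Figure D2:**
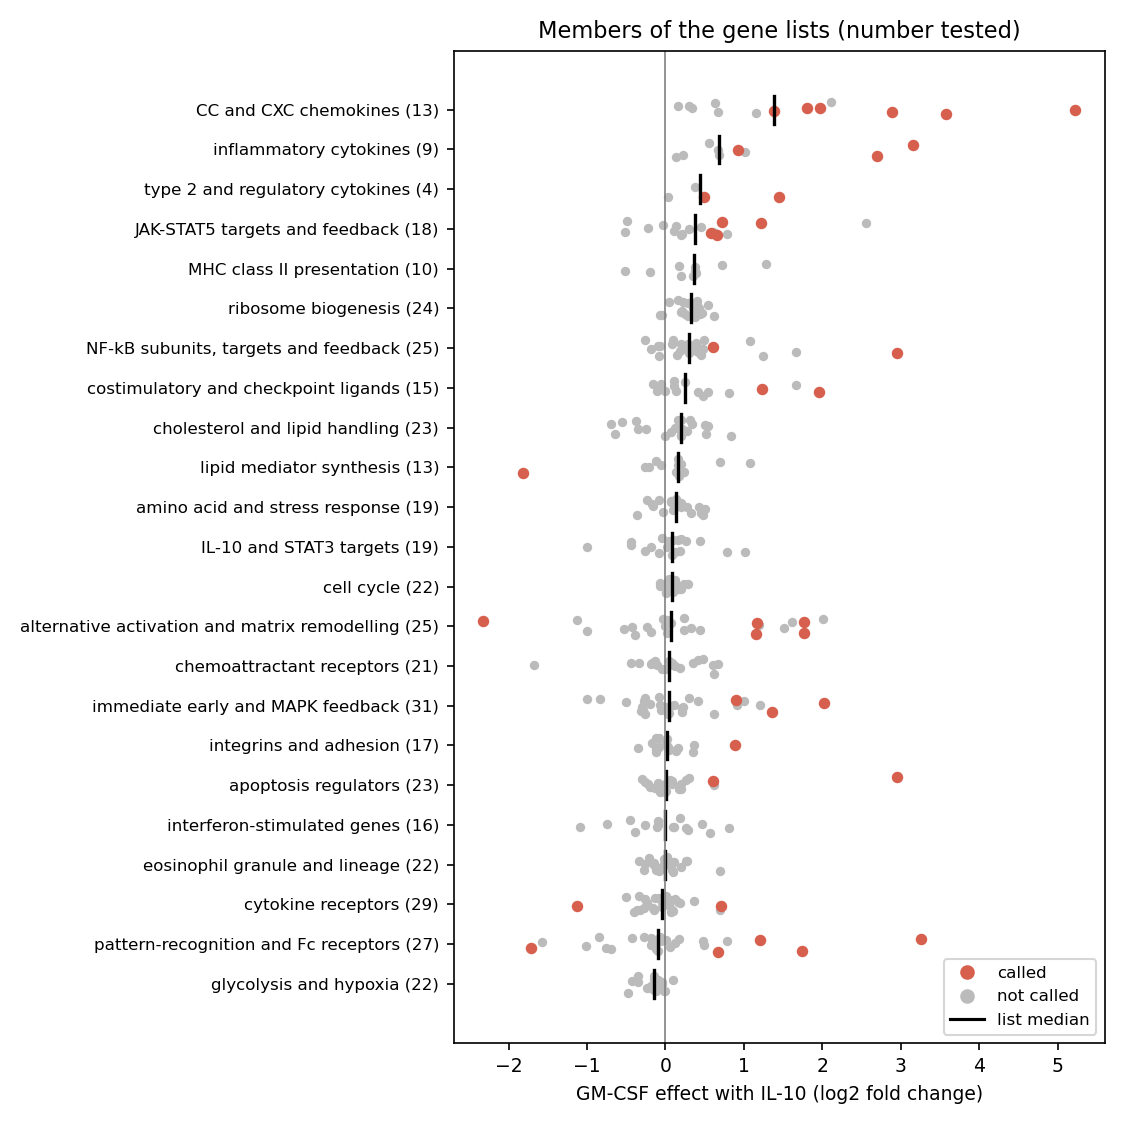
Log2 fold change of GM-CSF with IL-10 present for each tested member of 23 gene lists, with the number of members tested in parentheses; red dots passed the test and black lines are list medians. Chemokines have the highest median, 1.38, and glycolysis and hypoxia genes the lowest, -0.14, beside a median near 0 over all genes.

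Igf1 (chromosome 10, 87858265 to 87937042), a growth factor that macrophages and stromal cells secrete, had the largest fall. It was at 21.4, 18.8 and 12.5 CPM with IL-10 and at 3.18, 5.82 and 1.78 CPM with both cytokines (log2 fold change -2.32 ± 0.34, adjusted p = 0.000467, edgeR). Slc37a2, a sugar phosphate transporter gene, fell from 16.0, 12.03 and 8.61 CPM to 3.18, 4.95 and 3.51 CPM (-1.66 ± 0.29, adjusted p = 0.00317, edgeR). In both genes the lowest IL-10 library, replicate 3, was still above the highest library with both cytokines, replicate 2. Miox, which encodes myo-inositol oxygenase, fell from 22.1, 23.0 and 19.5 CPM to 9.40, 11.9 and 7.65 CPM (-1.17 ± 0.20, adjusted p = 0.0027, edgeR). Igf1, Slc37a2, Miox, Csf3r and Serpinb9b, a serine protease inhibitor gene at 0.666 to 3.61 CPM, were the 5 lowered genes whose call held whichever library was left out. Hpgds, the prostaglandin D2 synthase gene and the 1 called of 13 lipid mediator genes, fell from 4.68, 4.54 and 3.01 CPM to 1.92, 0.582 and 0.996 CPM (-1.82 ± 0.40, adjusted p = 0.0243, edgeR), but the call was lost without IL-10 replicate 1 or 2 or without replicate 2 or 3 with both cytokines. The remaining falls named by size were smaller or less stable: Tmem26, Dse, Chil1, Xdh, Lyz2 and Aoah had log2 fold changes between -1.66 and -0.40, and each lost its call in at least 4 of the 6 fits that left out a library.

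Of 17 markers of monocytes and macrophages tested, 2 fell, among them Lyz2, Cd14 rose, 4 had a positive log2 fold change and the median was -0.62. Mrc1, a macrophage mannose receptor gene, was at 91.9, 71.8 and 36.3 CPM with IL-10 and at 21.8, 62.6 and 8.44 CPM with both cytokines, so its groups overlapped (adjusted p = 0.625, edgeR). The complement gene C1qb was at 19.7, 17.5 and 8.01 CPM against 4.59, 13.2 and 2.04 CPM, also with overlap. For Igf1, Mrc1 and C1qb alike, replicate 1 was the highest of the IL-10 libraries and replicate 2 the highest of those with both cytokines. The libraries with the lower Y-linked level were replicates 1 and 2 with IL-10 and replicate 2 with both cytokines. Among these 3, Mrc1 was at 91.9 and 71.8 CPM with IL-10 and at 62.6 CPM with both cytokines, and among the other 3 it was at 36.3 CPM against 21.8 and 8.44 CPM. Each side of this split holds 1 or 2 libraries, and the part of the Y-linked make-up in the Mrc1 levels was not tested. A fit that also held the summed Y-linked level called 93 genes. IL-10 replicate 1 and replicate 2 with both cytokines were the highest of their groups for 12 and 13 of the 16 lowered genes, respectively. The summed level of the list was 1823 to 1901 CPM with IL-10 and 1594 to 1656 CPM with both cytokines, and Cd163 did not have enough counts to be tested. Most of this sum was Ly6c2, at 1259, 1272 and 1326 CPM with IL-10 and at 1191, 1206 and 1252 CPM with both cytokines. The eosinophil markers summed to 66297.5 to 68673.6 CPM with IL-10 and to 61452.5 to 63201.8 CPM with both cytokines. In bulk RNA, fewer cells of a type and less RNA per cell cannot be told apart. The part of the monocyte and macrophage markers in the falls was not tested. The count of 3 called monocyte markers was 0 without IL-10 replicate 1 or without replicate 1 with both cytokines. Dendritic cell markers summed to 39.3 to 46.6 CPM and 25.1 to 75.8 CPM, and 1 of 8 tested rose, the transcription factor gene Batf3, from 1.81, 1.20 and 0.689 CPM to 4.96, 5.96 and 3.41 CPM (adjusted p = 0.00581, edgeR); Xcr1 was not tested. Neutrophil markers summed to 1860 to 2254 CPM with IL-10 and 1844 to 1944 CPM with both cytokines, with Csf3r the 1 called of 13.

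To see where the response differed from that without IL-10, the same contrast was taken in the wild-type cells that received no IL-10, which shares no library with the comparison above. There GM-CSF raised 49 genes and lowered 17 (0.555% of the genes tested). Genes raised in both settings numbered 44, which is 51.2% of the 86 and 89.8% of the 49, and genes lowered in both numbered 6, which is 37.5% of the 16 and 35.3% of the 17. Of the 102 genes called with IL-10, 85 of 86 and 16 of 16 had the same sign without it, and the exception, Nr2f6, an orphan nuclear receptor gene, was at 0.82 with IL-10 and at -0.00536 without. The median log2 fold change of the 86 raised genes was 1.46 with IL-10 and 1.17 without. It was larger with IL-10 in 70 of these 86 genes and in 30 of the 49 genes raised without IL-10. The fall was larger with IL-10 in 10 of the 16 genes lowered with IL-10, in 0 of the 17 lowered without it (medians of -0.998 with and -1.49 without IL-10) and in 0 of the 6 lowered in both. Choosing genes by their effect in 1 setting favours a smaller effect in the other, so these counts and medians are a description. Across genes, which are not independent replicates, the log2 fold changes of the 2 settings had a Pearson correlation of 0.586 and a Spearman correlation of 0.549 over all 11885 genes tested, and of 0.826 and 0.684 over the 9412 genes at 5 CPM or more. The count of 66 without IL-10 was 35 when GM-CSF replicate 1 or untreated replicate 3 was left out, and 31 when untreated replicate 2 was.

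**Figure D3:**
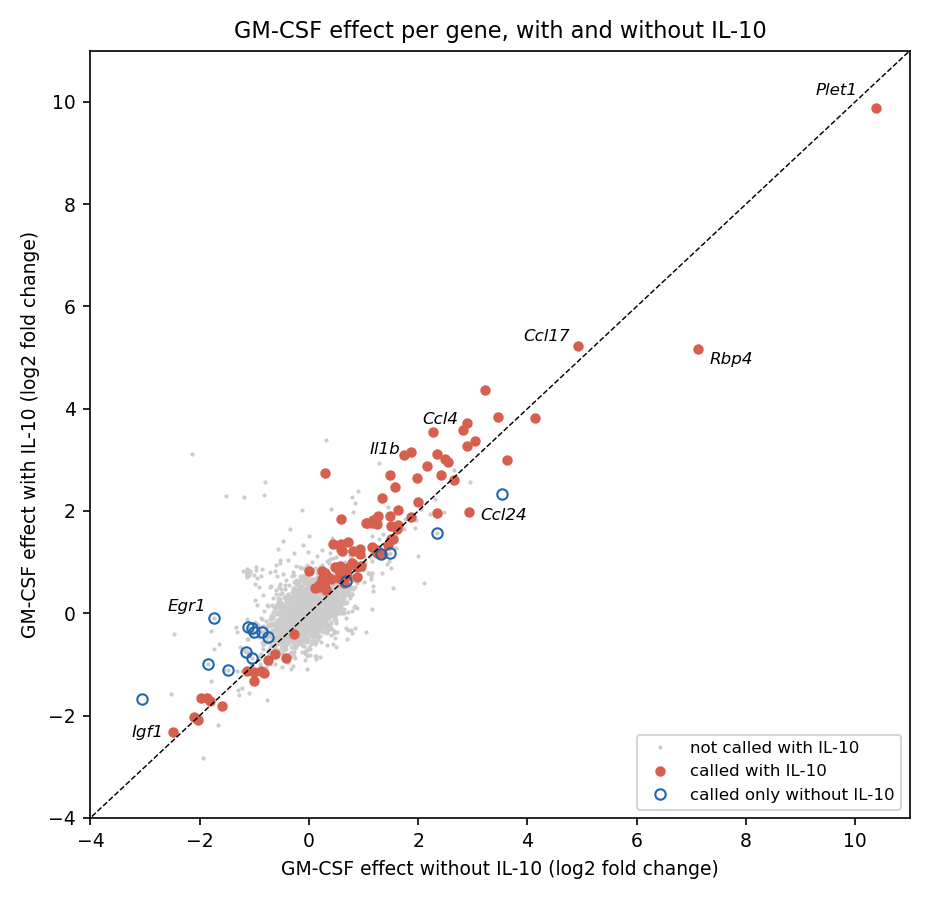
Log2 fold change of GM-CSF in wild-type cells without IL-10 (horizontal) and with IL-10 (vertical) for genes with a mean of at least 1 CPM; the dashed line marks equal effects. Red dots passed the test with IL-10 and blue circles passed it without IL-10 alone; Plet1 and Ccl17 lie near the line, and Egr1 is at -1.74 without IL-10 and -0.08 with it.

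The test of the difference itself, the GM-CSF effect with IL-10 minus that without, called 0 of 11885 genes in edgeR (0%). At an unadjusted p under 0.05 there were 149 genes, limma-voom called 0 and DESeq2 called 1. The gene that DESeq2 called was Egr1, an immediate early transcription factor, with a difference of 1.65 ± 0.31 (SE, DESeq2 adjusted p = 0.000841) and in edgeR of 1.66 ± 0.30 (adjusted p = 0.216). Without IL-10, Egr1 fell from 244, 364 and 378 CPM to 67.3, 110 and 118 CPM (-1.74 ± 0.22, adjusted p = 0.000177, edgeR). With IL-10 it was at 160, 169 and 129 CPM before and at 138, 132 and 162 CPM after GM-CSF (-0.08 ± 0.21, adjusted p = 0.937, edgeR), so these groups overlapped. The IL-10 libraries lay below all untreated libraries and above all GM-CSF libraries. Over 21 alternatives the difference stayed between 1.44 and 1.83, and the adjusted p of the 20 other than DESeq2 ranged from 0.0664, without untreated replicate 1, to 1.000.

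At an unadjusted p under 0.05 for the difference (edgeR), inflammatory cytokine genes had 3 of 9 members tested and chemokine genes 2 of 13. Immediate early and MAP kinase feedback genes, the longest list, had the most by count, 5 of 31 (Egr1, Egr2, Fosb, Dusp1 and Zfp36). With IL-10, 3 members rose and none fell, and the median was 0.04; without IL-10, 1 rose, 4 fell (Egr1, Fos, Dusp1 and Zfp36) and the median was -0.14. Egr2, a factor related to Egr1, rose with IL-10 from 7.83, 7.48 and 6.11 CPM to 18.6, 16.0 and 20.4 CPM (1.36 ± 0.17, adjusted p = 9.51e-05, edgeR). Without IL-10 it went from 11.7, 9.90 and 14.95 CPM to 15.3, 16.8 and 17.6 CPM (0.44 ± 0.17, adjusted p = 0.557, edgeR). The levels with GM-CSF overlapped between the settings, while all IL-10 libraries were below all untreated libraries, and the difference of the effects was 0.92 ± 0.24 (unadjusted p = 0.00102, edgeR). Nr4a3, an orphan nuclear receptor of the immediate early class, rose in both, with IL-10 from 2.34, 2.21 and 2.84 CPM to 11.2, 10.3 and 8.65 CPM (2.03 ± 0.28, adjusted p = 0.000241, edgeR) and without it by 1.63 ± 0.27 (adjusted p = 0.00247, edgeR). Its relative Nr4a1 rose with IL-10 from 4.82, 4.28 and 5.60 CPM to 9.99, 7.71 and 9.70 CPM (0.91 ± 0.21, adjusted p = 0.0426, edgeR), and this call held in 1 of the 6 fits that left out a library. Dusp1, a MAP kinase phosphatase gene, fell without IL-10 from 53.3, 73.5 and 85.8 CPM to 26.1, 43.5 and 33.6 CPM (-1.04 ± 0.19, adjusted p = 0.0052, edgeR), while with IL-10 it lay at 49.4, 49.3 and 32.5 CPM against 29.8, 34.6 and 42.5 CPM, overlapping groups (adjusted p = 0.675, edgeR).

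**Figure D4:**
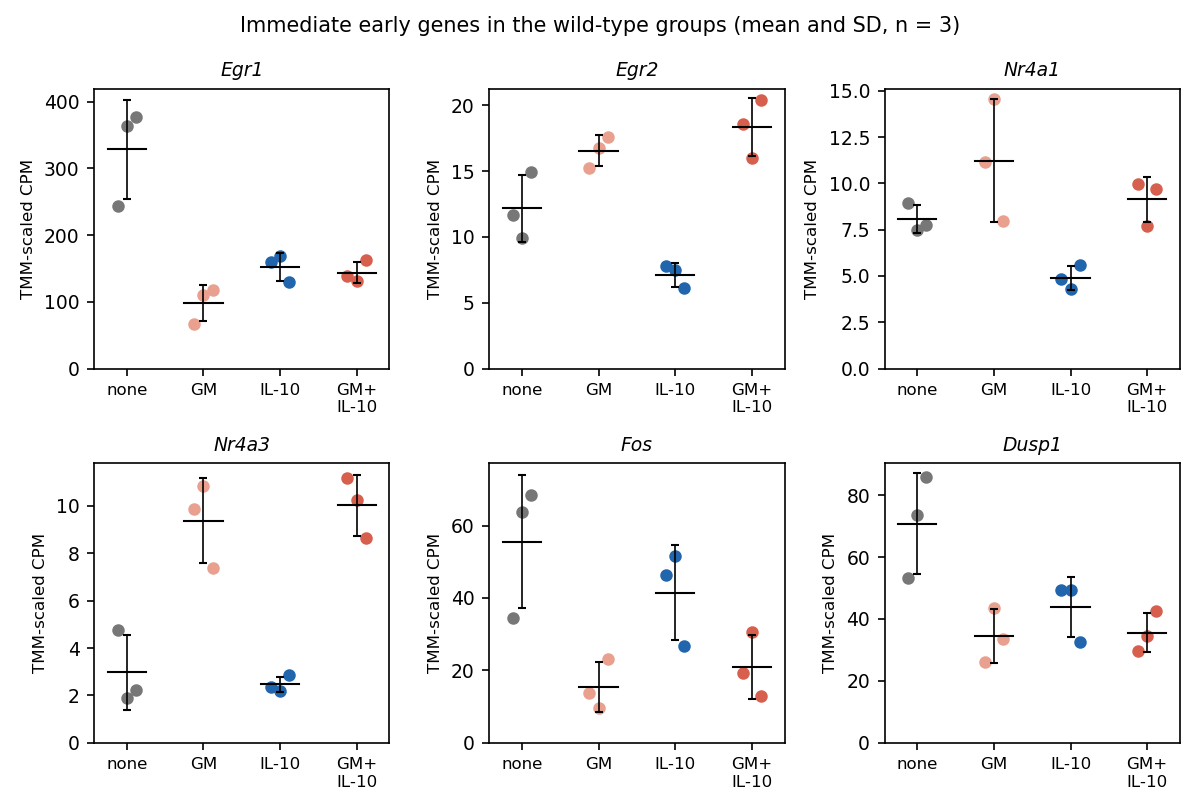
TMM-scaled CPM of 6 immediate early genes in the 4 wild-type groups (none: IL-5 alone; GM: GM-CSF), with each library as a dot and the mean and SD over 3 libraries. Egr1 is lower with GM-CSF, IL-10 or both than in cells given neither, and Egr2 is lowest with IL-10 and between 15.3 and 20.4 CPM in all libraries that received GM-CSF.

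The called genes with the largest gap between the 2 settings gave no adjusted call either. Toward a larger rise with IL-10 they were Zcchc3, a zinc finger gene, Edn1 (endothelin-1), Il1b, Cav1 (caveolin-1) and Fscn1 (the actin bundler fascin), with differences of 2.46, 1.36, 1.29, 1.26 and 1.26 and unadjusted p-values of 0.0147, 0.0488, 0.0156, 0.224 and 0.0185 (edgeR). Il1b, for example, rose by 3.16 with IL-10 and by 1.87 without, on the log2 scale. Toward a smaller value with IL-10 they were Rbp4, Ccl24, Synpo, Plet1 and Slc44a1, with differences of -1.96, -0.96, -0.64, -0.51 and -0.47 and unadjusted p-values of 0.185, 0.118, 0.463, 0.935 and 0.126 (edgeR). Rbp4, the retinol carrier gene, was at 0.0669, 0 and 0.0861 CPM with IL-10 and at 1.63, 2.76 and 1.78 CPM with both cytokines, 94 counts against 2 and a ratio of 42.1 with an exact 95% counting interval of 11.3 to 353. Ccl3 had a difference at an unadjusted p of 0.00396 (edgeR), with a rise of 1.38 with IL-10 and 0.72 without. Of all 11885 genes, 149 had an unadjusted p under 0.05 for the difference, a smaller share than the 0.05 of the threshold itself. These included 13 of the 86 genes raised and 0 of the 16 lowered with IL-10, and 4 of the 49 raised and 4 of the 17 lowered without it; these genes were chosen by 1 of the effects that the difference is made of, so the counts are a description.

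The response was also set against that of cells labelled Csf2ra-/-, which were given GM-CSF without IL-10, so genotype and IL-10 both differ in the comparison. Csf2ra itself was at 29.9, 28.5 and 38.4 CPM in the untreated and at 38.1, 39.8 and 38.3 CPM in the GM-CSF libraries labelled Csf2ra-/-, below the 53.4 to 59.2 CPM of untreated wild-type libraries but not absent, and the deleted stretch is not given in the sources used here. In these cells 0 of 11885 genes were called for GM-CSF (0%, edgeR), with 531 at an unadjusted p under 0.05 and 0 called by DESeq2 or limma-voom. Without untreated replicate 2 of that genotype the count was 29. Chi-square per degree of freedom was 32.9 to 62.6 between the untreated libraries of that genotype and 5.18 to 39.9 between its GM-CSF libraries. With this spread, effects may have gone uncalled. Of the genes called in wild type with IL-10, 85 of the 86 raised and 16 of the 16 lowered had a smaller effect in size in the Csf2ra-/- cells, with median log2 fold changes of 0.0185 and -0.0567. These genes were chosen by their effect in wild type with IL-10, which favours a smaller effect elsewhere, so the counts are a description. The difference between the effects passed the test for 16 genes, all larger in wild type (0.135% of the genes tested). They included Ccl17, Ccl4, Ccl22, Ccl3, Cxcl2, Il1b, Tnf, Clec4n, Inhba and Hbegf. In wild type without IL-10, which has the same treatments as the Csf2ra-/- cells by the labels, 15 of the 16 were also called as raised (log2 fold changes of 0.56 to 4.93). Kif1a was at 2.66 in that setting and was not called (adjusted p = 0.139, edgeR). Ccl17, for example, rose there by 4.93 ± 0.42 and was at -0.43 ± 0.50 in Csf2ra-/-. Before TMM scaling, the summed Y-linked level was 152 to 184 CPM in the Csf2ra-/- libraries and 50.7 to 184 CPM in the wild-type libraries without IL-10. These groups may therefore differ in more than genotype. Ccl4, for instance, rose by 3.58 ± 0.27 in wild type with IL-10 and was at -0.04 ± 0.31 in Csf2ra-/-, a difference of 3.62 ± 0.41 (SE, adjusted p = 0.000165, edgeR). Kif1a, a kinesin motor gene, had the largest difference, 7.37 ± 1.11, but its untreated Csf2ra-/- libraries were at 0.247, 0.530 and 3.19 CPM, with replicate 3 far above the other 2, and its GM-CSF Csf2ra-/- libraries were at 0.0540, 0.0752 and 0 CPM. In wild type it went from 0.335, 0.401 and 0.689 CPM with IL-10 to 3.48, 2.76 and 2.41 CPM with both cytokines (adjusted p = 0.0426, edgeR), and no fit without 1 of these libraries kept the call.

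**Figure D5:**
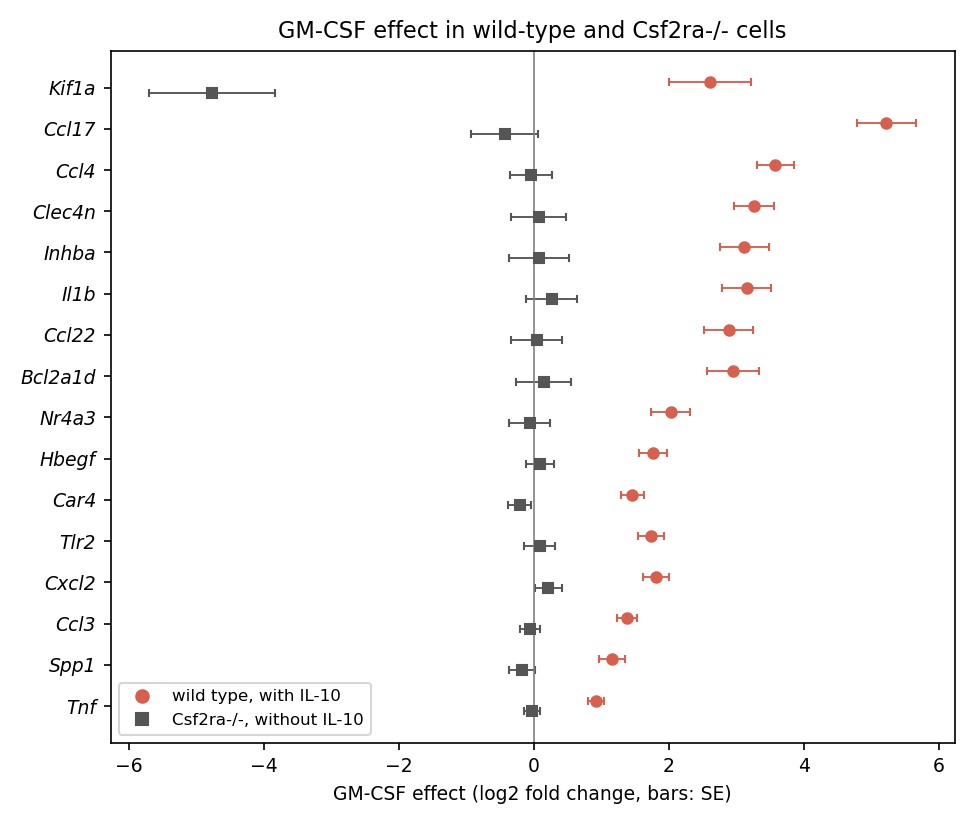
Log2 fold change of GM-CSF with SE for the 16 genes whose effects differed, in wild-type cells with IL-10 (red circles) and in cells labelled Csf2ra-/- without IL-10 (grey squares). Apart from Kif1a, the Csf2ra-/- values lie between -0.43 and 0.26, and the wild-type values lie between 0.92 and 5.22.

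The count of 16 depended on single libraries. It was 137 without untreated Csf2ra-/- replicate 2, 8 and 10 without GM-CSF Csf2ra-/- replicate 2 and 3, 10 and 8 without replicate 1 and 2 with both cytokines, and 6 and 8 without IL-10 replicate 1 and 2.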

How the data were processed

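The deposited files hold raw read counts per Ensembl gene, per the file headers, which the authors made with STAR and featureCounts. The submitters' processing notes give the build as GRCm38.p6. Tool versions, strand setting and treatment of multi-mapping reads: not given in the sources used here. RNA was isolated on columns with DNA digestion and made into stranded TruSeq mRNA libraries, per the labels' protocols. Each file lists 25746 genes, of which 111 without a symbol in GENCODE M21 held 0.0385% of counts. Groups came from the labels, and replicate numbers from the order of deposit.

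Counts were filtered with filterByExpr, scaled by TMM (factors 0.939 to 1.03) and fitted as 8 group means over all 24 libraries with edgeR 4.0.16 robust quasi-likelihood (R 4.3.3). The common biological coefficient of variation was 14.1%. Libraries labelled Irf5-/- entered only the shared estimate of spread. Genes were called at a Benjamini-Hochberg adjusted p under 0.05 over all 11885 genes, two-sided, and SE is the log2 fold change over the root of F. In simulated counts of 11752 genes, the test for the GM-CSF effect with IL-10 recovered 93% of 100 genes changed by 1 on the log2 scale and 99% of 100 changed by 2. The changed genes were drawn from those at 5 CPM or more, and no outlying library was simulated. The shares therefore do not hold for genes at lower levels or for the spread that replicate 3 with both cytokines adds. Genes were named by rule: the 15 strongest rises and 10 strongest falls among called genes without overlap between groups, at 5 CPM or more on average, predicted gene models left out, the 5 called genes with the largest gap between settings in each direction, up to 4 called members per list, and central pathway genes. Ccl2, Il1rn, Il21r, Serpinb9b, Nr2f6 and the genes of the closing observations were chosen after their values were seen. The members and gene lists were chosen with earlier results of these data known. No set test was run. A called gene of the monocyte marker list is counted but not reported here by name. DESeq2 1.42.0, limma 3.58.1 voom, other scalings and filters, fewer libraries in the fit, a Y-linked covariate and leaving out each library were alternatives. Promoters are RefSeq's for GRCm38.p6, matched by symbol.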

Additional observations from a re-analysis of the deposited data

Results flagged for a closer look

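In the comparison of the GM-CSF effect between wild-type cells with IL-10 and cells labelled Csf2ra-/- without it, 16 genes had effects that differed by the test of the difference itself (edgeR, Benjamini-Hochberg adjusted). On the log2 scale, wild type minus Csf2ra-/-, the differences for chemokine genes were 5.65 for Ccl17, 3.62 for Ccl4, 2.84 for Ccl22, 1.59 for Cxcl2 and 1.44 for Ccl3. For cytokine and growth factor genes they were 3.04 for Inhba, 2.89 for Il1b, 1.67 for Hbegf, 1.34 for Spp1 and 0.95 for Tnf. Receptor genes had differences of 3.19 (Clec4n) and 1.65 (Tlr2), and the remaining genes of 7.37 (Kif1a), 2.81 (Bcl2a1d), 2.09 (Nr4a3) and 1.67 (Car4, a carbonic anhydrase gene). Car4 stood at 141, 143 and 127 CPM with IL-10 and at 285, 450 and 397 CPM with both cytokines. Genotype and IL-10 both differ in this comparison. In wild type without IL-10, 15 of the 16 genes were called as raised as well. Kif1a had a log2 fold change of 2.66 there and was not called (adjusted p = 0.139, edgeR).

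Between the settings with and without IL-10, the GM-CSF effect on Egr1 differed by 1.65 on the log2 scale in DESeq2, which was the only tool of the 3 run to call it.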

How the results depend on the processing

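The count of 102 genes was 168 with DESeq2 and ranged from 44 (without IL-10 replicate 1) to 100 in fits that left out 1 library; under the other scalings, filters, tools and sets of libraries it was 92 to 118. Without IL-10 the count of 66 was 112 with DESeq2 and 31 to 61 with 1 library left out. The difference of the effects gave 1 gene with DESeq2 and 0 under all other alternatives. The count of 16 against Csf2ra-/- was 34 with DESeq2, 10 with limma-voom, 6 when the fit held just the groups compared, and 6 to 137 with 1 library left out. No named gene changed sign in an alternative where it was called there or in the main fit, and the other called genes were not checked for this. For the 66 named genes, 853 values kept their side of the threshold, 133 fell short of it, 98 of these with 1 library left out, and 2 newly passed. List medians moved by no more than the median SE of their single members in 475 of 480 cases, a width that is not the spread of the median itself. Without replicate 3 with both cytokines the stromal marker median went from 0.51 to -0.64. The causes were not tested. No paired analysis was possible because the labels give no replicate numbers that are shared between groups. Genes under 5 CPM made up 27 of the 86 raised and 6 of the 16 lowered genes, and their folds rest on few counts.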

Other observations

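Besides the chemokine and interleukin-1 pairs described above, some called genes had gene bodies within 100 kb of each other. Cish, Hemk1 and 6430571L13Rik on chromosome 9 all rose, with Hemk1, a methyltransferase gene, at 22.2, 22.5 and 21.1 CPM with IL-10 and at 41.4, 43.9 and 30.3 CPM with both cytokines. Axl and Tgfb1 on chromosome 7 both rose across a gap of 52196 bases. Rbp4 and the fatty acid receptor gene Ffar4 on chromosome 19 both rose across a gap of 2366 bases, from 2 counts each to 94 and 36 counts; whether reads of one were counted for the other was not tested.

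The following raised genes were chosen after their values were seen and stand for no group. Vdr, the vitamin D receptor gene, was at 0.335, 0.601 and 0.775 CPM with IL-10 and at 5.62, 9.02 and 3.14 CPM with both cytokines (log2 fold change 3.38 ± 0.48, adjusted p = 0.000323, edgeR). Aldh1a2, which encodes an enzyme of retinoic acid synthesis, was at 0.468, 0.200 and 0.430 CPM against 1.85, 2.62 and 2.46 CPM (2.65 ± 0.47, adjusted p = 0.00364, edgeR). Irf4, a transcription factor gene of alternative activation, was at 5.08, 4.95 and 6.71 CPM against 21.2, 20.5 and 11.1 CPM (1.66 ± 0.34, adjusted p = 0.0163, edgeR), and its call held in 2 of the 6 fits that left out a library. Acod1, the itaconate-producing enzyme gene, was at 2.68, 3.01 and 4.30 CPM against 12.7, 11.9 and 8.91 CPM (1.76 ± 0.38, adjusted p = 0.0218, edgeR), and its call held in 2 of 6 as well.

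Of the genes called without IL-10, 16 were not called with it, 11 lower and 5 higher. The lowered ones were Cx3cr1, Fos, Egr1, Cd28, Rab7b, Zfp36, Trf, Dusp1, Il7r, Cd300ld and Dhrs3, and each also had a negative log2 fold change with IL-10. For 4 of these 11 the difference between the settings had an unadjusted p under 0.05 (Egr1, Zfp36, Dusp1 and Cd300ld), and none passed after adjustment in edgeR.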
